A study of Mus musculus with 6 samples.

Results

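The Notch genes examined here are 4 receptors (Notch1, Notch2, Notch3 and Notch4), 3 ligands (Jag1, Jag2 and Dll1) and 3 genes that Notch signaling is known to switch on (Hes1, Hey1 and Nrarp). These 10 genes were chosen by name, out of 47643 genes in the count tables, and all 10 were found by their Ensembl identifiers. Epithelial tumor cells, sorted as CD45-EPCAM+, came from 6 breast tumors of MMTV-PyMT mice, in which the mouse mammary tumor virus promoter drives the polyoma middle T oncogene in mammary epithelium. The strain was FVB/N-Tg (MMTV-PyVT)634Mul/J. Every tumor had been exposed to B20-4.1.1, which blocks mouse VEGF-A, given intraperitoneally at 5 mg/kg, 2 times per week for 6 weeks, starting at 7 weeks of age. The study asked how tumors that become hypoxic under this antibody differ from those that do not. Which of the 6 tumors belong to which hypoxia class is not in the labels, and vehicle-treated tumors were not analysed here. Results are therefore described tumor by tumor, as tumors 1 to 6, and no groups are compared.

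Notch receptors sit on the cell surface and are activated by ligands of the Jagged and Delta families on a neighboring cell. Binding exposes the receptor to cleavage by an ADAM protease and then by gamma-secretase, and the freed intracellular domain joins the DNA-binding protein RBPJ in the nucleus to switch on repressors of the Hes and Hey families. In the mammary gland the pathway takes part in the choice between luminal and basal fates, and in blood vessels Notch ligands act downstream of VEGF.

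Counts on genes lay between 2509482 (tumor 2) and 5893246 (tumor 1) per library, so that 3 counts, taken here as the floor of detection, correspond to between 0.509 and 1.20 CPM, the counts scaled to the total of the library. The library of tumor 1 stood apart, since its correlation across genes with the others had a median of 0.788, where the remaining 5 had 0.905 to 0.939. The 7 luminal markers, such as Epcam and Krt8, summed to between 3957 and 4874 CPM in every tumor. The study's sort kept cells with EPCAM and removed those with CD45, CD31 or PDGFRα. The genes of these proteins (Epcam, Ptprc, Pecam1 and Pdgfra) are among the markers used here. The marker sums are therefore not an independent check of the labelled identity. Markers of 3 other cell types that use Notch were low. The 6 endothelial markers summed to between 1.59 and 4.12 CPM, with Emcn and Cldn5 at 0 and Cdh5 and Tek at 3 counts or fewer in every tumor. The 5 pericyte markers summed to between 3.59 and 9.33 CPM and the 6 fibroblast markers to between 15.1 and 25.9 CPM. In tumor 3, 9 immune markers reached 232 CPM, against at most 53.5 elsewhere, and 5 hemoglobin and red cell genes reached 864 CPM, against at most 69.4. The 8 basal markers, 6 of which passed 3 counts somewhere, summed to between 132 CPM (tumor 3) and 504 CPM (tumor 5). The part of these differences in the Notch values was not tested. In such bulk libraries, fewer cells of a type and less RNA per cell cannot be told apart.

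Of the receptors, Notch1, Notch3 and Notch2 were present in every tumor, and Notch4 was at the edge of detection. Notch1, the receptor best known from luminal progenitors and T cells, lies at chr2:26457903-26516663 on the minus strand of GRCm38. Its lowest level was 38.3 CPM in tumor 1, its median 105 CPM and its highest level 126 CPM in tumor 2 (mean 97.3 ± 32.2, SD, n = 6). Tumors 2 to 6 lay close together, between 92.1 and 126 CPM, and tumor 1 lay well below them. The share of reads given to no gene was also lowest in tumor 1 (16.1%) and highest in tumor 2 (41.4%). Its part in the Notch1 values was not tested.

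Notch3, a receptor known from vascular smooth muscle and from luminal progenitor cells (chr17:32120820-32166852, minus strand), had the smallest SD relative to its mean among the 10 genes. It ranged from 45.3 CPM in tumor 4 through a median of 56.0 CPM to 78.4 CPM in tumor 1 (mean 58.3 ± 13.0, SD, n = 6). Notch2 (chr3:98013527-98150361, plus strand) ranged from 17.9 CPM in tumor 2 through a median of 33.1 CPM to 44.5 CPM in tumor 5 (mean 33.4 ± 10.00, SD, n = 6). An exon of Notch2 overlaps Gm42820 on the same strand, a gene with at most 22 counts in a library, so the split of reads between the pair is uncertain.

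Tumor 1 therefore combined the lowest Notch1 with the highest Notch3. The ratio of Notch1 to Notch3, each per kilobase of exon, was 0.278 in tumor 1 and lay between 0.828 (tumor 3) and 1.48 (tumor 4) in the other tumors. Among all 12088 genes that passed the filter on low counts, 28.8% had their lowest level in tumor 1 and 34.2% their highest, so that library was at an end of the range for most genes. Notch4 (chr17:34564268-34588503, plus strand), a receptor typical of endothelium, had between 1 count (tumor 2) and 17 counts (tumor 1), with a median of 1.82 CPM. Its counts did not differ between tumors beyond counting noise (chi-square of 1.47 per degree of freedom, Benjamini-Hochberg adjusted p = 0.281 over 21717 genes).

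**Figure D1:**
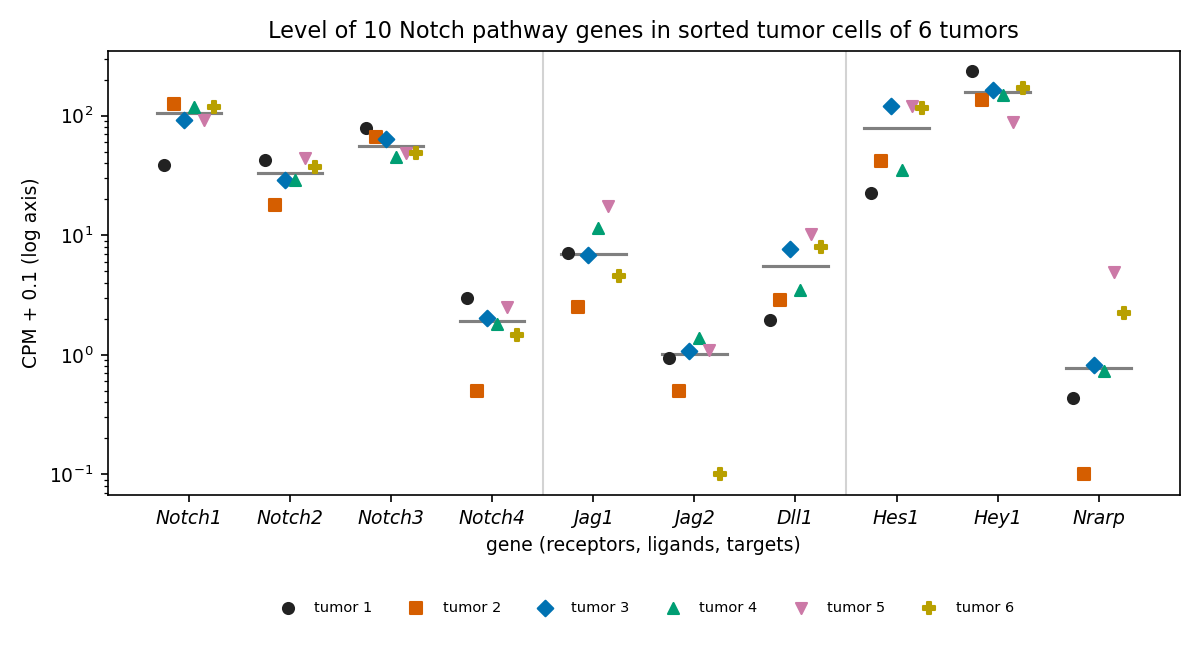
CPM + 0.1 of each of the 10 genes (log axis) in each of the 6 tumors (colored points), with the median of 6 as a grey line. Hey1, Notch1, Hes1, Notch3 and Notch2 had medians above 33 CPM, whereas Jag1 and Dll1 had medians of 6.87 and 5.46 CPM and Notch4, Jag2 and Nrarp lay near the floor of 3 counts.

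The ligands were lower than the 3 main receptors. Jag1 (chr2:137081456-137116644, minus strand), a ligand that in the mammary gland is also made by basal cells, had 6.96, 2.39, 6.79, 11.5, 17.6 and 4.49 CPM in tumors 1 to 6. These values rest on 6 counts in tumor 2 and 88 counts in tumor 5, and they span 7.35-fold, the widest range among the 7 Notch genes that passed the filter. Tumors 4 and 5 were the highest and tumor 2 the lowest.

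Dll1 (chr17:15367354-15376872, minus strand), a Delta ligand, had 1.87, 2.79, 7.52, 3.40, 10.2 and 7.81 CPM in tumors 1 to 6. Tumors 3, 5 and 6 were high and tumors 1, 2 and 4 low, an arrangement different from that of Jag1. Jag1 was above Dll1 per kilobase in tumors 1, 4 and 5 and below it in tumors 2, 3 and 6 (mean log2 difference 0.07 ± 1.01, SD, n = 6, two-sided exact sign-flip permutation p = 0.844).

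Jag2 (chr12:112907819-112929776, minus strand), the second Jagged ligand, had between 0 counts (tumor 6) and 6 counts (tumor 4), with a median of 0.909 CPM. Its counts did not differ beyond counting noise (chi-square of 1.32 per degree of freedom, adjusted p = 0.351 by Benjamini-Hochberg over 21717 genes). Jag1 was above Jag2 per kilobase in 6 of 6 tumors (exact sign-flip permutation p = 0.0312, the smallest that 6 tumors allow).

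The targets held the genes with the highest levels per kilobase, Hey1 and Hes1. Hey1 (chr3:8663359-8667256, minus strand), a basic helix-loop-helix repressor, ranged from 89.1 CPM in tumor 5 through a median of 157 CPM to 237 CPM in tumor 1 (mean 158 ± 48.6, SD, n = 6). Hes1 (chr16:30064384-30067796, plus strand), a repressor of the same class, had 22.6, 41.4, 119.8, 35.1, 120.0 and 115 CPM in tumors 1 to 6. The tumors thus fell into 3 with Hes1 at 115 CPM or more and 3 with at most 41.4 CPM, and no tumor lay between.

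The pair did not move together. The ratio of Hes1 to Hey1, each per kilobase, was 0.153, 0.490, 1.17, 0.378, 2.16 and 1.07 in tumors 1 to 6. Tumor 1 had the highest Hey1 with the lowest Hes1. Tumor 5 had the lowest Hey1, with Hes1 about level with tumors 3 and 6. After TMM scaling, Hes1 was highest in tumor 6 (126 CPM, against 117 in tumor 5). Tumors 3 and 6 combined high Hes1 with 165 and 172 CPM of Hey1.

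Nrarp (chr2:25180758-25183339, plus strand), a small ankyrin repeat protein that dampens Notch signaling, had 2, 0, 3, 3, 24 and 11 counts in tumors 1 to 6. It rose above 3 counts only in tumors 5 and 6, with 4.79 and 2.15 CPM. These counts differed beyond counting noise (chi-square of 9.65 per degree of freedom, adjusted p = 9.95e-09 by Benjamini-Hochberg over 21717 genes). Against the floor of 1.20 CPM that 3 counts give in tumor 2, where no read was counted, Nrarp in tumor 5 was at least 4.01-fold higher.

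Ordered by the median level per kilobase of exon, the genes ran from Hey1 (48.0 CPM per kilobase) and Hes1 (38.4) through Notch1 (7.36), Notch3 (6.93) and Notch2 (3.07) to Dll1 (1.29) and Jag1 (1.18), and ended with Nrarp (0.264), Notch4 (0.226) and Jag2 (0.131). Of the 9 neighboring pairs in this order, 3 were separated in the same direction in 6 of 6 tumors, namely Hes1 above Notch1, Notch3 above Notch2 and Notch2 above Dll1. Each had a two-sided exact sign-flip permutation p of 0.0312, or 0.0938 after Benjamini-Hochberg adjustment over the 9 pairs. The order itself was taken from the medians of the same 6 tumors, so these p-values are no independent test of it. The other 6 pairs gave exact p-values between 0.0625 and 0.875, so that Hey1 and Hes1, Notch1 and Notch3, and Dll1 and Jag1 did not differ beyond their spread per kilobase. The libraries were made with a method that reads the 3′ end of each transcript, where counts depend little on transcript length. By CPM without length the order was Hey1, Notch1, Hes1, Notch3, Notch2, Jag1, Dll1, Notch4, Jag2 and Nrarp. On this scale the first separation turned, with Notch1 above Hes1 in 4 of 6 tumors (exact permutation p = 0.25). Hey1 was above Hes1 in 5 of 6 (exact permutation p = 0.0625) and Notch1 above Notch3 in 5 of 6 (exact permutation p = 0.156). The place of Hes1 was also set by single tumors, since its median lies between its 2 clusters. It was 41.4 CPM without tumor 3, 5 or 6 and 115 CPM without tumor 1, 2 or 4, and without tumor 1, 2 or 4 Hes1 stood first in the order per kilobase.

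**Figure D2:**
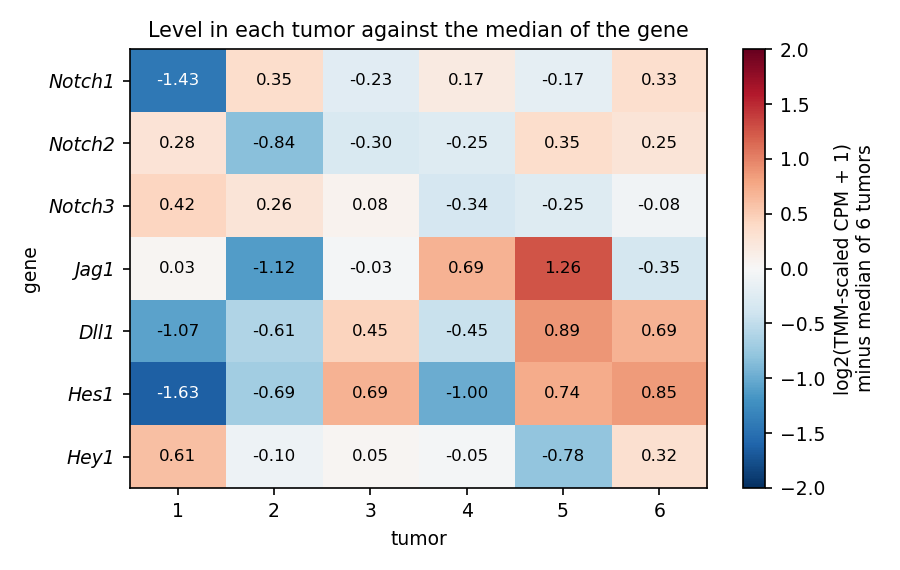
Level of the 7 Notch genes that passed the filter in each tumor, as log2(TMM-scaled CPM + 1) minus the median of the gene over the 6 tumors. Hes1 and Dll1 share their high tumors (3, 5 and 6) and their low tumors (1, 2 and 4), whereas Hey1 is highest in tumor 1 and lowest in tumor 5.

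The next question was whether the Notch genes varied more between tumors than other genes. All 7 genes that passed the filter differed between tumors by more than counting noise at an adjusted p of 0.05, a description that 90.5% of all genes tested shared. The chi-square per degree of freedom ran from 9.46 for Dll1 to 139 for Hes1, against a median of 11.8 over all genes. With edgeR's dispersion, which compares a gene with others of like abundance, Hes1 had a coefficient of variation between tumors of 54.0%, against 35.0% on the trend, and 96.8% of genes had a lower ratio to the trend. Jag1 (52.2% against 44.8%), Dll1 (54.3% against 47.5%) and Notch1 (38.5% against 35.1%) also lay above the trend, and Hey1, Notch2 and Notch3 below it. That made 4 of 7 above the trend, against 33.1% of all genes, a comparison for which no test was made. No Notch gene had 1 tumor far from the other 5 on the CPM scale by Dixon's 95% criterion (0 of 7, against 16.3% of all genes), although Notch1 in tumor 1 did on the log2 scale. Tumor 5 held the highest CPM of 4 of the 7 genes (Notch2, Jag1, Dll1 and Hes1), against 18.5% of all genes. For Hes1 this was a near tie, with 120 CPM against 119.8 in tumor 3, and after TMM scaling tumor 6 was highest.

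Among the 21 pairs of these 7 genes, Dll1 and Hes1 had the most alike profiles (Pearson r = 0.975 and Spearman rho = 0.886 over the 6 tumors, on log2(TMM-scaled CPM + 1)). Since Hes1 falls into 2 separate clusters of 3 tumors, this is given as a description, with no test. Among 8868 genes that averaged 10 CPM or more, 12 were more like Hes1 than Dll1 was. The least alike pair was Notch3 and Jag1 (r = -0.67).

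By the same measure, the genes most like each Notch gene over the 6 tumors were Magi3 for Notch1 (r = 0.999), Adh5 for Notch2 (r = 0.993), Tmem39a for Notch3 (r = 0.993), P4ha1 for Jag1 (r = 0.985), Rpl34 for Dll1 (r = 0.994), Srsf4 for Hes1 (r = 0.995) and Eid1 for Hey1 (r = 0.987). With 6 tumors and 8868 genes, high values arise easily, and these are given with no test. The profile of Notch1 was the most widely shared, with 280 genes at an r above 0.95, and that of Jag1 the least, with 14. P4ha1, a subunit of the collagen prolyl hydroxylase and a known target of hypoxia-inducible factors, ranked the tumors as Jag1 did save for tumors 1 and 3, with 5.98 CPM in tumor 2, the lowest, and 17.0 CPM in tumor 4, the second highest.

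The 7 Notch genes that passed the filter were then set against hypoxia. The study classed its mouse tumors by pimonidazole staining, which is not in the labels of these samples. Its RNA score, the mean TPM of Vegfa, Slc2a1 and Car9, was therefore used in its place. This score was 48.5, 37.2, 51.4, 76.6, 94.4 and 47.3 in tumors 1 to 6. Of the 7 Notch genes, Jag1 followed it most closely. Its level changed by 1.78 on the log2 scale for each unit of log2 of the score (SE 0.42), with an unadjusted p of 0.00187 in edgeR's quasi-likelihood test and an adjusted p of 0.752 (Benjamini-Hochberg over 12088 genes). It therefore did not pass the test across all genes. No gene did, and 4.24% of all genes (512) had an unadjusted p under 0.05, among them 1 of the 7 Notch genes, Jag1. With DESeq2, 15 genes (0.124%) passed, and Jag1 did not (adjusted p = 0.172). By unadjusted p, 29 of the 12088 genes had a smaller value than Jag1.

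The correlation of Jag1 with log2 of the score was r = 0.975 (exact permutation p = 0.00278, adjusted over all genes p = 0.968) and rho = 0.943 (exact permutation p = 0.0167, adjusted p = 0.958). An exact permutation p of r under 0.05 was found for this 1 of the 7 Notch genes and for 4.22% of all genes. The correlation was r = 0.967 without tumors 4 and 5, which had the scores farthest from the median. The identifiers in the labels carry 2 prefixes, 1 for tumors 2 and 3 and the other for tumors 1, 4, 5 and 6, and with the prefix as a further term the slope was 1.68 (SE 0.53, edgeR adjusted p = 0.889). Within the prefix of 2 tumors, Jag1 was higher in tumor 3, with the higher score. Within the prefix of 4, Jag1 ranked the tumors as the score did, with tumor 6 lowest, then tumors 1, 4 and 5. With the score from TMM-scaled CPM, tumor 6 lay above tumor 1, and this match of ranks did not hold. The CPM ranges of both prefixes overlapped for each of the 10 Notch genes. Of the 7 that passed the filter, 0 were without overlap, against 14.1% of all genes, a difference not tested. For Notch2 the overlap was narrow, with at most 29.1 CPM in tumors 2 and 3 and at least 28.9 CPM in the others. After TMM scaling its ranges did not overlap (at most 27.5 against at least 28.4 CPM). Leaving out each tumor in turn gave slopes of Jag1 on the score between 1.60 and 1.89.

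**Figure D3:**
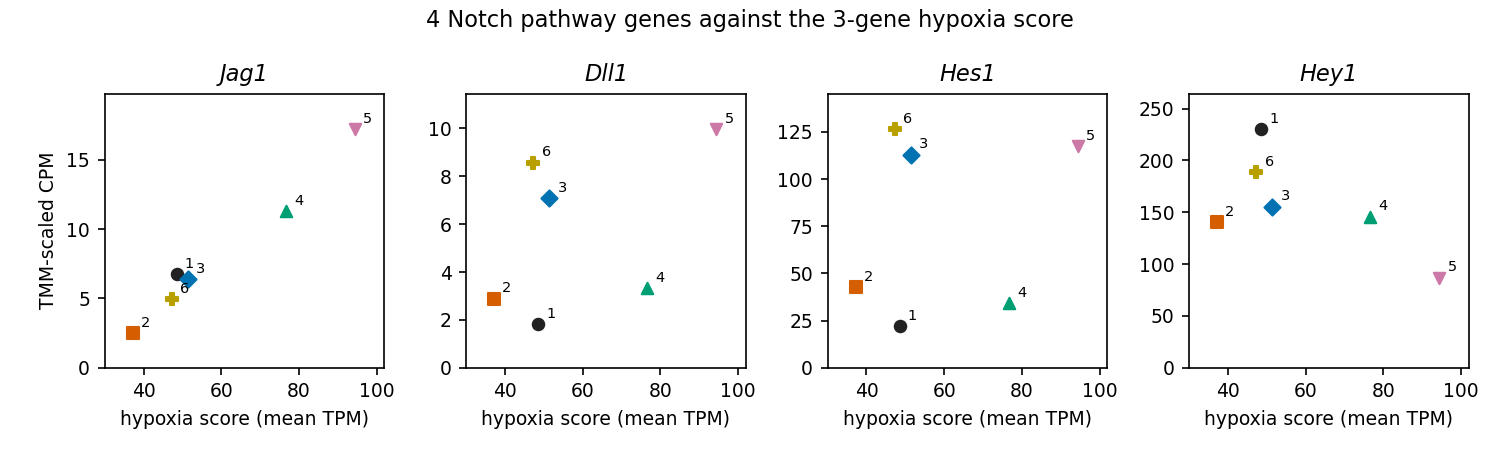
TMM-scaled CPM of Jag1, Dll1, Hes1 and Hey1 (vertical axes from 0) against the 3-gene hypoxia score in mean TPM, with each tumor as a numbered point. Jag1 climbs with the score from tumor 2 to tumor 5, with tumors 1 and 3 out of order, whereas tumors 3 and 6, with scores of 51.4 and 47.3, have about as much Hes1 as tumor 5 with 94.4.

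None of the other 6 genes had an unadjusted p under 0.05. Their slopes were 0.72 for Dll1 (SE 0.70), 0.40 for Notch2 (SE 0.40), 0.40 for Hes1 (SE 0.72), -0.11 for Notch1 (SE 0.47), -0.48 for Notch3 (SE 0.31) and -0.65 for Hey1 (SE 0.41), with adjusted p-values of 0.954 or higher in edgeR's test. The positive slopes of Dll1 and Hes1 rested on tumor 5, without which they were -0.18 and -0.67. That of Notch1 turned to 0.28 without tumor 2, and that of Notch2 was 0.077 without tumor 2 and 0.057 with the prefix term. That of Hey1 was -0.11 without tumor 5 and -0.996 without tumor 2 (edgeR unadjusted p = 0.048, adjusted p = 0.904). Of the 3 genes under the filter, a fit without it gave Nrarp a slope of 2.01 (SE 0.98, edgeR unadjusted p = 0.0556, adjusted p = 0.763 over 21717 genes), Jag2 1.16 (SE 1.11) and Notch4 0.61 (SE 0.84). The median slope of the 7 genes was 0.40, against -0.04 over all genes, and 4 of 7 were above 0, against 46.8% of all genes.

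Tumor 5, the tumor with the highest score, also had the highest sum of basal markers, so the same fit was made on this sum, which was 289, 145, 132, 194, 504 and 241 CPM in tumors 1 to 6. The sum is mostly Krt14 and Krt17, which had 359 and 127 CPM in tumor 5, while Krt5 (17.4 CPM) and Trp63 (16.0 CPM) were highest in tumor 4. Notch2 followed it with a slope of 0.53 (SE 0.24, unadjusted p = 0.0528 and adjusted p = 0.997 in edgeR's quasi-likelihood test), and Jag1 with a slope of 0.81 (SE 0.38, adjusted p = 0.997). The slope of Jag1 on the basal level was 0.30 without tumor 5. Tumors 2 and 3, which share a prefix, had the lowest sums. With the prefix as a further term, the basal slope of Notch2 was 0.31 (SE 0.40) and that of Jag1 0.62 (SE 0.59). No Notch gene passed, nor did any of the 12088 genes, of which 3.57% (431) had an unadjusted p under 0.05. DESeq2 called 16 genes (0.132%), none of them a Notch gene. The correlation of Notch2 with the basal level was r = 0.815 (exact permutation p = 0.0389, adjusted p = 0.993 over all genes) and rho = 0.943 (exact permutation p = 0.0167, adjusted p = 0.824), and r = 0.972 without tumors 3 and 5. Of the 7 Notch genes, this 1 had an exact permutation p of r under 0.05, as did 4.09% of all genes, and 4 of 7 slopes were above 0, against 53.2%. For Jag1 it was r = 0.690 (exact permutation p = 0.125, adjusted p = 0.993). With the mean log2 of the basal list in place of the sum, the slope of Jag1 was 3.04 (SE 0.93, edgeR unadjusted p = 0.0102, adjusted p = 0.539). In a fit with the score and the basal sum together, chosen after seeing the data, the slope of Jag1 was 1.66 on the score (SE 0.60, edgeR adjusted p = 0.936) and 0.12 on the sum (SE 0.41, adjusted p = 0.984). The mean log2 of the basal list was not fitted together with the score. Whether Jag1 follows the score apart from basal content was therefore not tested with that measure.

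Of the 7 Notch genes that passed the filter, Jag1 was the closest to the hypoxia score, so upstream sequences were examined next. They came from RefSeq (GRCm38.p6, a C57BL/6J sequence, while the mice were FVB/N). The 250 bases before each start were searched on both strands for the core letters of hypoxia response elements, ACGTG or GCGTG. RefSeq windows were found for 8 of the 10 genes (9 windows, since Dll1 has 2), and not for Hes1 and Hey1. The RefSeq starts can differ from the ends of the gene spans given above. By those spans, the windows of Notch1 and Jag2 and a window of Dll1 lie inside the gene. That of Jag1 lies partly inside, although the matches printed below lie outside the spans. The letters occurred in 8 of 9 windows (7 of 8 genes), all but that of Notch1, and in 38.6% of all 32851 windows. Both cores hold the letters CG, and the windows were not matched for base content. Enrichment was therefore not tested. The core letters of RBPJ sites, TGGGAA, occurred in 0 of the 9 windows and in 21.6% of all windows. The pair of matches before Jag1 and 1 of the 2 overlapping matches before Nrarp, which read the same letters on either strand, a target whose highest level was in tumor 5, are printed here on the strand of the gene with the matched letters in capitals.
Jag1, chr2:137116752-137116770, match starting 248 bases before the start: ccGCGTGttgagaagaggt
Jag1, chr2:137116675-137116703, match on the other strand, 171 bases before the start: gagccaggcgggCACGCgtcattgtgtta
Nrarp, chr2:25180639-25180667, match starting 107 bases before the start: cgccccgcccccACGTGggcaccacccaa
Such matches describe the letters only and do not show that a factor binds there. Notch3, with a slope of -0.48 on the score, also had 2 matches, and Dll1 had 2 in each of its windows.

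The remaining machinery of the pathway was examined with a list of 46 further genes, of which 32 passed the filter. Dll4, the Delta ligand typical of tip cells in sprouting vessels, had between 1.40 CPM (tumor 5) and 4.12 CPM (tumor 3) and was the 1 gene of the 32 whose counts did not differ beyond counting noise (adjusted p = 0.0698 by Benjamini-Hochberg over 12088 genes). Dll3, Dlk1, Dlk2, Hes2, Hes3, Hes5 and Heyl had at most 1 count in any library, and Mfng had at most 1 as well. Hes6, which is related to Hes1 but opposes it in some settings, was by contrast abundant, between 70.1 CPM (tumor 5) and 187 CPM (tumor 1). Hey2 had between 1 and 11 counts.

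Of the genes of receptor cleavage, 2 gamma-secretase subunit genes had few counts, Aph1b with 3 to 9 counts and Aph1c with 3 to 32. Furin, which cuts the receptor during its maturation, ranged from 158 CPM in tumor 5 to 573 CPM in tumor 1. Tumor 1 lay far above the other tumors, which reached at most 277 CPM. Adam10, the protease of the first activating cut, went the other way, with its lowest level of 29.9 CPM in tumor 1 and its highest of 87.2 CPM in tumor 4. Adam17 lay between 108 and 180 CPM.

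Of the enzymes that modify the receptors with sugars, Rfng (16.0 to 47.0 CPM) was above Lfng (2.98 to 6.77 CPM) in median level per kilobase (13.2 against 1.75). Of the genes for ligand endocytosis and receptor turnover, Fbxw7, a ubiquitin ligase subunit that marks the Notch intracellular domain for degradation, had 31.1 CPM in tumor 1 and between 94.3 and 125 CPM elsewhere. Itch, another ubiquitin ligase, was also lowest in tumor 1 (8.65 CPM), with a highest level of 61.8 CPM in tumor 2. In the nuclear complex, Rbpj ranged from 19.4 CPM in tumor 3 to 34.9 CPM in tumor 4.

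In the fit on the hypoxia score, none of these 32 genes passed the adjusted threshold. A single gene of the 32, Dtx4, a ubiquitin ligase of the Deltex family, had an unadjusted p under 0.05, against 4.24% of all genes. Its slope was 0.88 (SE 0.38, unadjusted p = 0.0458 and adjusted p = 0.954 in edgeR's test), and its level ran from 24.3 CPM in tumor 2 to 79.1 CPM in tumor 5. Dtx4 also had the smallest p of the list on the basal level (slope 0.75, SE 0.22, unadjusted p = 0.00754 and adjusted p = 0.997 in edgeR's test). The coactivator Maml1 (slope 0.93, SE 0.45) had the largest positive slope of the list on the score, ahead of Dtx4 and Rbpj (slope 0.60, SE 0.32), and Dll4 (-0.90, SE 0.66) and Furin (-0.87, SE 0.49) had the most negative slopes. The median slope of the 32 was -0.12, against -0.04 over all genes, with 13 above 0.

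**Figure D4:**
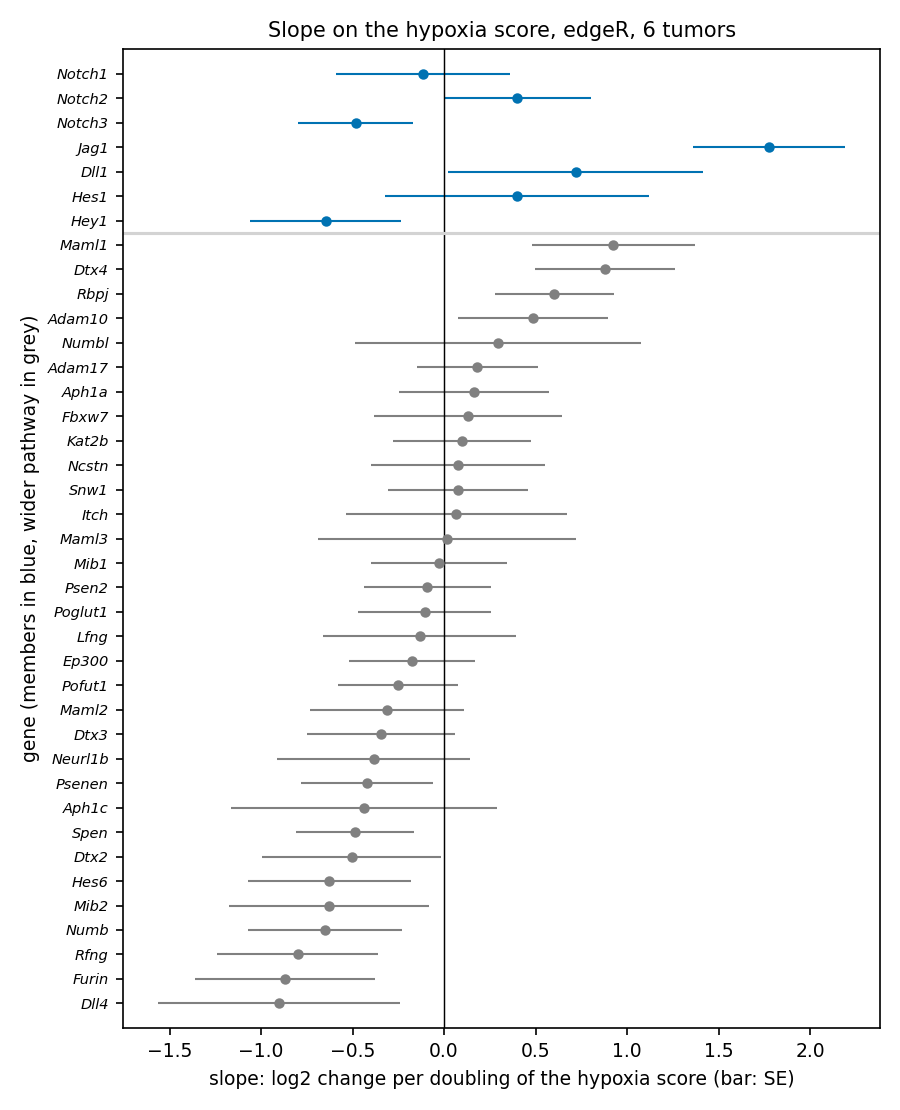
Slope on the hypoxia score of the 7 Notch genes (blue) and the 32 further pathway genes (grey) that passed the filter, in log2 change per log2 of the score, with the standard error as bars. Jag1, at 1.78, lies to the right of all others, and no gene passed the threshold after adjustment.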

How the data were processed

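Libraries of sorted cells from 6 tumors were made by the authors with the QuantSeq 3′ FWD kit, trimmed with bbduk, aligned to GRCm38/mm10 with STAR 2.5 and counted with HTSeq on the Bluebee platform. These deposited counts are whole reads per gene with no normalization. The annotation release, the strand setting and any collapsing of molecular identifiers are not given in the sources used here, so overlapping genes are uncertain and floors cover counting error only. Reads given to no gene (16.1 to 41.4%) were left out of the totals. Each library has its own identifier in the labels, which do not say what it stands for. Whether any of the tumors came from the same mouse is not known here. The chi-square p-values measure departure from counting error, and the other p-values the spread between these samples.

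CPM was computed over all genes, and levels per kilobase and TPM with union exon lengths of GENCODE M21, which held 47224 of 47643 identifiers. Genes were kept by filterByExpr of edgeR (minimum count 10, minimum total 15, group size 3). Of the 10 Notch genes, 7 passed, and Notch4, Jag2 and Nrarp did not. Slopes on log2 of the score or of the summed basal CPM came from edgeR's quasi-likelihood test with TMM factors, fitted to all 12088 genes, with Benjamini-Hochberg adjustment over them and a threshold of 0.05, and were tested on simulated data. Correlations used log2(TMM-scaled CPM + 1) and exact permutation over the orders of the tumors, and the 9 level comparisons an exact sign-flip test of log2(CPM per kilobase + 0.1). Counting noise was tested by chi-square against the library totals. The 10 genes are all named, with the pathway genes of a list written by role and the 1 gene of at least 10 CPM most like each Notch gene that passed. The genes and lists were chosen with earlier results of these data known, and a pair of genes of the pathway list is not reported here. Alternatives were DESeq2, its size factors, no filter, other scores, pseudocounts and lengths, each tumor left out in turn and, chosen after seeing the data, the identifier prefix as a term, or the score and the basal sum together. Software was R 4.3.3, edgeR 4.0.16, DESeq2 1.42.0, Python 3.11.15, numpy 2.4.6, scipy 1.17.1, pandas 2.3.3 and matplotlib 3.10.9. The CD45+ fraction and the single-cell data were not analysed here.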

Additional observations from a re-analysis of the deposited data

Results flagged for a closer look

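For some genes 1 tumor lay farther from its nearest neighbor, as a share of the range of the 6, than Dixon's 95% critical value, which chance gives for about 1 in 20 genes and which 16.3% of all genes showed here. None of the 7 Notch genes that passed the filter did so on the CPM scale. In the wider pathway list, tumor 1 lay above the others for Maml2 (gap of 0.814 of the range), Hes6 (0.790), Furin (0.712), Dtx2 (0.693) and Mib2 (0.672), and below them for Fbxw7 (0.675). Maml2 had 75.2 CPM in tumor 1, against 31.8 to 39.8 elsewhere, and Mib2 had 82.6 CPM, against 18.2 to 39.3. Tumor 2 lay above the others for Numb (0.648), a Notch inhibitor, with 44.2 CPM against 14.1 to 24.7. Tumor 3 lay above the others for Hes7 (0.749), with 4.61 CPM against 1.06 to 1.95. Hes7 had only 3 to 19 counts and did not pass the filter, so it is not among the genes behind the 16.3%. The library of tumor 1 also stood apart by its median correlation with the other libraries (0.775). Tumor 3 stood apart by its summed immune markers (0.827) and red cell genes (0.926).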

How the results depend on the processing

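Of 340 alternative values, 323 kept their direction and their side of the threshold or moved by less than the spread, 15 reversed and 2 moved. The 9 alternatives of the order counted as kept, although the order changed and the separated pairs numbered 2 to 4. The Hes1 median of 78.3 CPM also counted as kept at 41.4 and 115 CPM. No Notch gene passed the adjusted threshold for the score or the basal level under any of the alternatives run. Those counts had little room to move, since 0 of 12088 genes passed in the main fits. The reversed values were slopes. On the hypoxia score they were those of Notch1 (0.28 without tumor 2, 0.017 with the score from TMM-scaled CPM and 0.047 with the prefix term), Dll1 (-0.18) and Hes1 (-0.67), the last pair without tumor 5. With each tumor left out in turn, these 3 slopes lay between -0.29 and 0.28, between -0.18 and 1.12, and between -0.67 and 0.85. On the basal level they were those of Notch1 (0.013 with the mean log2 of the list), Notch3 (0.064 without tumor 5 and 0.020 with the prefix term), and, without tumor 5, Dll1 (-0.43), Hes1 (-0.56) and Hey1 (0.50). With each tumor left out, these ran from -0.21 to 0.064 for Notch3, -0.43 to 0.88 for Dll1, -0.56 to 0.76 for Hes1 and -0.36 to 0.50 for Hey1. With the score and the basal sum in 1 fit, slopes also reversed for Notch1 (0.25) and Notch2 (-0.12) on the score and Notch3 (0.17) and Hey1 (0.084) on the sum. The cause was not tested. On the log2 scale 1 Notch gene, Notch1, had a tumor standing apart (tumor 1, the lowest), against 0 on the CPM scale and 12.1% of all genes on the log2 scale. The median of Notch3 was 69.6 CPM when the 10 most abundant genes were left out of the totals.

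Over all genes, those called on the score numbered 10 without the filter, 15 with DESeq2 and 2 without tumor 1, and those on the basal level 12, 16 and 40, against 0. The adjusted p of Jag1 on the score lay between 0.148 (without tumor 1) and 1 (without tumor 5). No paired analysis was possible because all samples belong to 1 group. Depth limits Notch4, Jag2 and Nrarp, whose 53, 21 and 43 counts over 6 libraries leave differences between most tumors undetectable.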
